A study of Mus musculus with 10 samples.

Results

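The CCN family encodes secreted matricellular proteins, which sit in the extracellular matrix and signal to cells rather than build the matrix. The members described here are Ccn1 (Cyr61), Ccn2 (Ctgf), Ccn4 (Wisp1) and Ccn5 (Wisp2), with Thbs1, which encodes thrombospondin 1, as the fifth gene looked for. They were taken as all probe sets, the units in which an Affymetrix array reports an mRNA, whose platform annotation gives 1 symbol equal to one of these 5 genes. This gave 4 of the 5 genes, out of 8251 with such a probe set, and 4 of 12422 ordinary probe sets: 92777_at for Ccn1, 93294_at for Ccn2, 102044_at for Ccn4 and 94704_at for Ccn5. The 1 probe set that lists Thbs1 lists another gene beside it, so Thbs1 was not analysed here.

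CCN1 and CCN2 bind integrins and heparan sulphate proteoglycans on fibroblasts and act on adhesion, migration and matrix deposition. Ccn1 is classically an immediate-early gene of serum-stimulated fibroblasts, and Ccn2 is induced by transforming growth factor beta. Both are widely used as readouts of the coactivators YAP and TAZ, which bind TEAD transcription factors. Ccn4 was described as a Wnt-responsive gene, and CCN5 lacks the C-terminal module of the other family members and restrains growth of smooth muscle cells. Thrombospondin 1 activates latent transforming growth factor beta.

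The cells were primary mouse embryonic fibroblasts from C57/BLACK6 embryos (e14.5) with the genotype ATF1 +/-, which the serum-treated and the starved cultures share. All cultures spent 48 h in 1% dialysed serum and then 2 h in medium with 10% serum (serum-treated) or 1% serum (starved). Polyribosome-associated RNA and undertranslated RNA, which carried no ribosome, a subunit or 1 ribosome, came from sucrose gradients of cells given cycloheximide at 100 ug/ml for 30 min, and cytoplasmic RNA from cells without it. Each of the 4 gradient groups had 2 arrays and each of the 2 cytoplasmic groups had 1, which makes 10 arrays in 6 groups. In the gradient groups, the cells behind replicate 2, not those behind replicate 1, had also been given 3H-cytidine and 200 uM 4-thiouridine. RNA of several cultures was combined for each array, so p-values reflect how far such mixtures differ, which can be technical. A polyribosome and an undertranslated array with the same number may share their cultures, for which the main fits had no term.

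The undertranslated arrays were dim, with median intensities between 5.7 and 8.8. The polyribosome medians lay between 45.3 and 54.25, and the cytoplasmic ones at 19.1 and 19.2. Levels below are therefore given as deposited and as scaled log2 levels, for which all arrays were given the same distribution. A scaled difference between pools is relative to the other mRNAs of each pool. The background of an array was its brightest bacterial or yeast control probe set that was not spiked in. The label of fibroblasts was checked against 12 markers, of which 10 (among them Col1a2, Dcn and Thy1) were above background on all 10 arrays. So were 3 of 11 macrophage, 2 of 9 endothelial, 1 of 8 epithelial and 1 of 8 skeletal muscle markers.

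Of the 5 genes, RefSeq's promoter table (GRCm38.p6) held only Ccn1, whose gene spans chr3:145646971-145649985 on the minus strand. In the same build Ccn2 spans chr10:24595442-24598683, Ccn4 chr15:66891369-66923201 and Ccn5 chr2:163820752-163833146. The 250 bases before the start of Ccn1 are shown, since no other of these genes was in that promoter table. They span chr3:145649986-145650235, 5′ to 3′ on the minus strand, with capitals for the motifs found.
Ccn1: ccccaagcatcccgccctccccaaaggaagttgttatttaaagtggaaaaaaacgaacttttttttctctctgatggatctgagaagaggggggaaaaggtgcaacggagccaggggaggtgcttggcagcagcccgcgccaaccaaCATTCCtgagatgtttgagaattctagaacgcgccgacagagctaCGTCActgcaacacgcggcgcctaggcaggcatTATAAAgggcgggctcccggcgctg
Both strands were searched, and no 2 matches overlapped. The TEAD core CATTCC lay 103 to 98 bases before the start, and 12.6% of 32851 promoter windows of the same length hold it. TGACG, the half-site of the cAMP response element that ATF1 and CREB bind, lay 58 to 54 bases before it on the opposite strand, and 17.8% of windows hold it. TATAAA lay 25 to 20 bases before the start (12.4% of windows). The full element TGACGTCA (1.55% of windows) and the CArG box of serum response factor (1.47%) were not in this window.

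All 4 CCN mRNAs were detected in polyribosome and cytoplasmic RNA of both serum states, and the largest differences of Ccn1 were between RNA pools. Ccn1 had 915.4 and 1160 intensity units in serum-treated polyribosome RNA and 1208.9 and 796.3 in starved polyribosome RNA. It had 7.5 and 9.9 in serum-treated undertranslated RNA and 11.1 and 9.7 in starved undertranslated RNA, which is 1.03 to 1.66 times the background of each array. In cytoplasmic RNA it stood at 827.4 in serum-treated and 528.1 in starved cells. Ccn1 mRNA was thus bright in polyribosome RNA and at the edge of detection in undertranslated RNA, whichever the serum state. The median probe set also had a polyribosome over undertranslated ratio of 10.2 in serum-treated and 7.92 in starved cells.

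**Figure D1:**
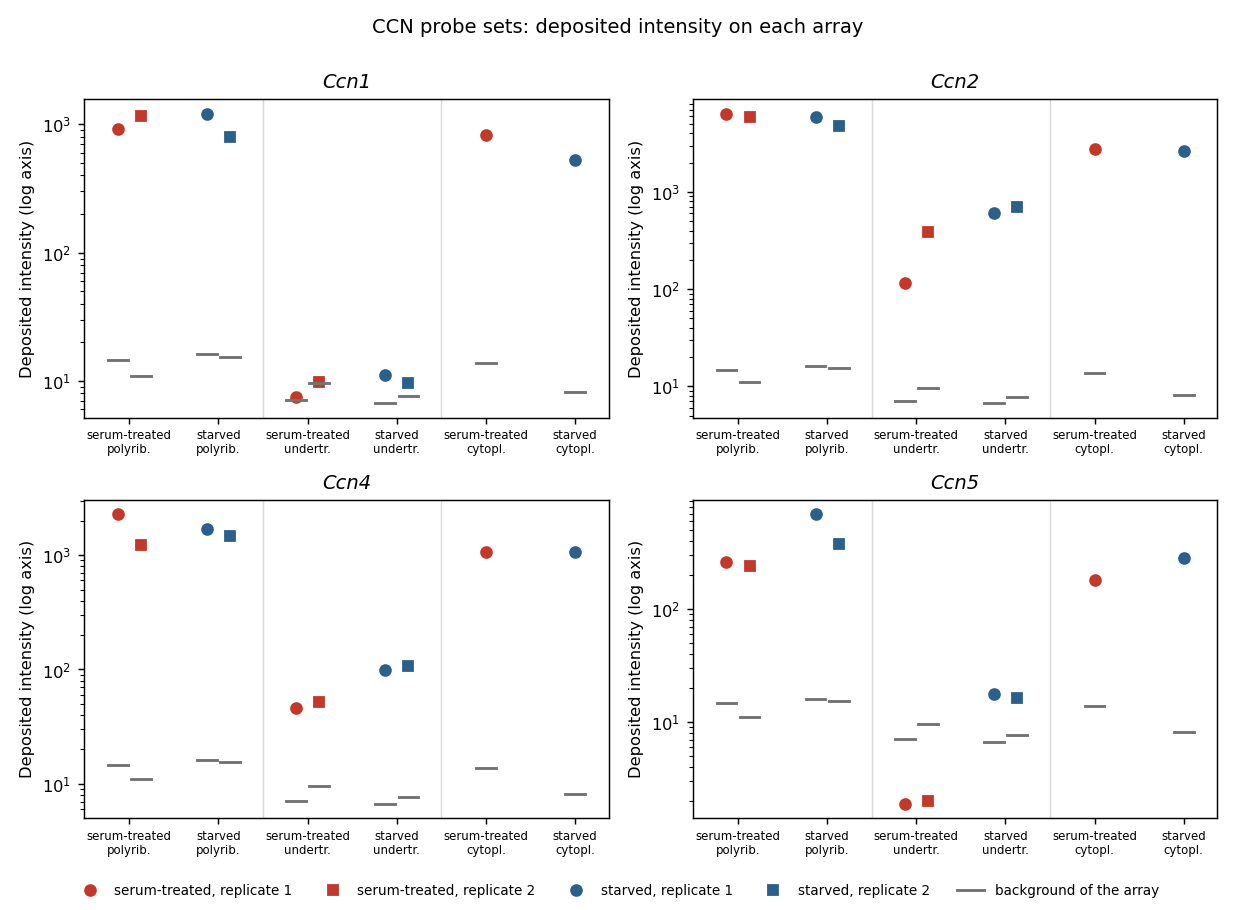
Deposited intensity (log axis) of the 4 CCN probe sets on each of the 10 arrays, by serum state and RNA pool, with the background of each array as a grey bar. Ccn1 lies close to background only on the 4 undertranslated arrays, and Ccn5 lies below it only on the 2 serum-treated undertranslated arrays, at 1.9 and 2 units.

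Ccn2 had 6370.9 and 5897 units in serum-treated and 5871.8 and 4780.9 in starved polyribosome RNA. The undertranslated arrays gave 115.2 and 390.4 in serum-treated and 611 and 693.2 in starved cells, and the cytoplasmic arrays 2730.6 in serum-treated and 2605.9 in starved cells. Its signal was 16.2 to 536 times background over the 10 arrays, the undertranslated ones included. Ccn4 gave 2284 and 1217.5 units in serum-treated and 1679.5 and 1462.5 in starved polyribosome RNA. In undertranslated RNA Ccn4 stood at 46.5 and 52.2 in serum-treated and 98.5 and 106.2 in starved cells, and in cytoplasmic RNA at 1065 in serum-treated and 1059.1 in starved cells. Ccn4 was 5.44 to 155 times background, and its cytoplasmic values stood in a ratio of 1.01 between the states.

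Ccn5 was lower in serum-treated than in starved cells in every pool. It had 260.3 and 238.6 units in serum-treated and 691.4 and 374.2 in starved polyribosome RNA, and 181.2 in serum-treated and 283.5 in starved cytoplasmic RNA. In undertranslated RNA it had 1.9 and 2 units in serum-treated cells, below the backgrounds of 7.1 and 9.6, and 17.6 and 16.3 in starved cells, above the backgrounds of 6.7 and 7.7. Every serum-treated array lay below every starved array of its pool, in all 3 pools. That order held for 416 of the 9316 probe sets that passed the filter on low levels (4.47%), and the opposite order for 3.3%. All 4 CCN probe sets passed this filter.

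**Figure D2:**
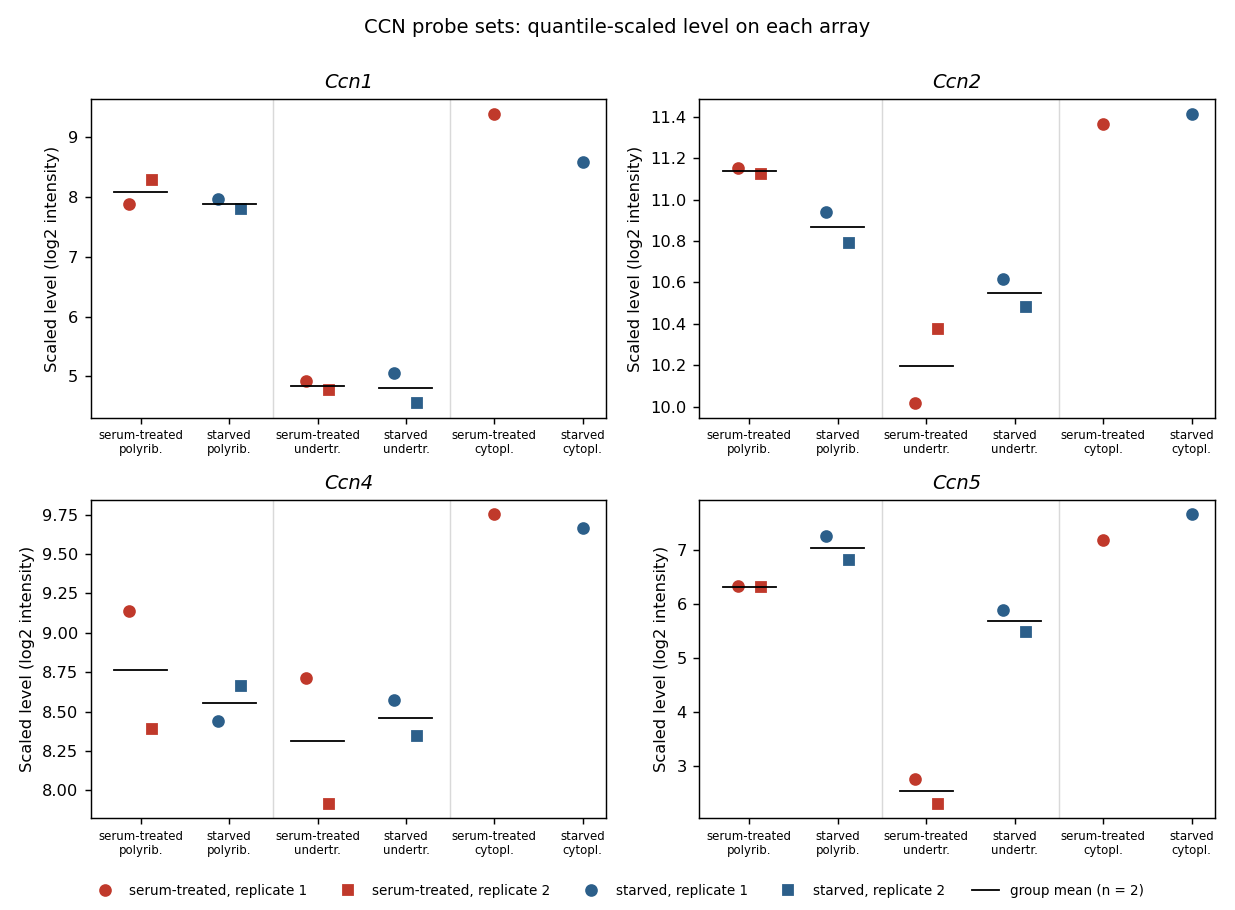
Scaled log2 level of the 4 CCN probe sets on each array, with a line at the mean of each gradient group (n = 2) and 1 array in each cytoplasmic group. The 3 serum-treated Ccn5 means or values lie below the starved ones of the same pool, while the Ccn4 arrays of the gradient pools overlap between the states.

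The first comparison asked how CCN mRNA responds to 2 h of serum in polyribosome and cytoplasmic RNA, over 3 serum-treated and 3 starved arrays with the pool as a factor. No CCN gene passed limma's test, against 0.891% of the 9316 probe sets (0.666% higher and 0.225% lower), and 1 of the 4 (Ccn5) had an unadjusted p under 0.05. Ccn5 stood 0.63 ± 0.19 log2 units lower after serum (SE, limma adjusted p = 0.222), or 0.647 times its starved level, lower in 3 of 3 same-numbered pairs. Only 4.77% of probe sets had a lower estimate. The pairs gave -0.92 and -0.50 log2 units in polyribosome and -0.47 in cytoplasmic RNA.

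Ccn1, the classical serum-induced member, stood at 0.40 ± 0.20 (limma adjusted p = 0.5), and its pairs disagreed. The difference was 0.80 in the cytoplasmic pair, where 91% of probe sets had a lower one, and -0.09 and 0.49 in the polyribosome pairs. The cytoplasmic pair has no replicate, so its difference has no test. Ccn2 stood at 0.16 ± 0.16 (adjusted p = 0.754) and Ccn4 at 0.17 ± 0.22 (adjusted p = 0.818) in the same limma fit. The 2 Ccn4 polyribosome pairs went opposite ways, at 0.70 and -0.27. Only 2 h was sampled, so an earlier peak was not measured. In bulk RNA of this kind, fewer cells of a type and less RNA per cell cannot be told apart.

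**Figure D3:**
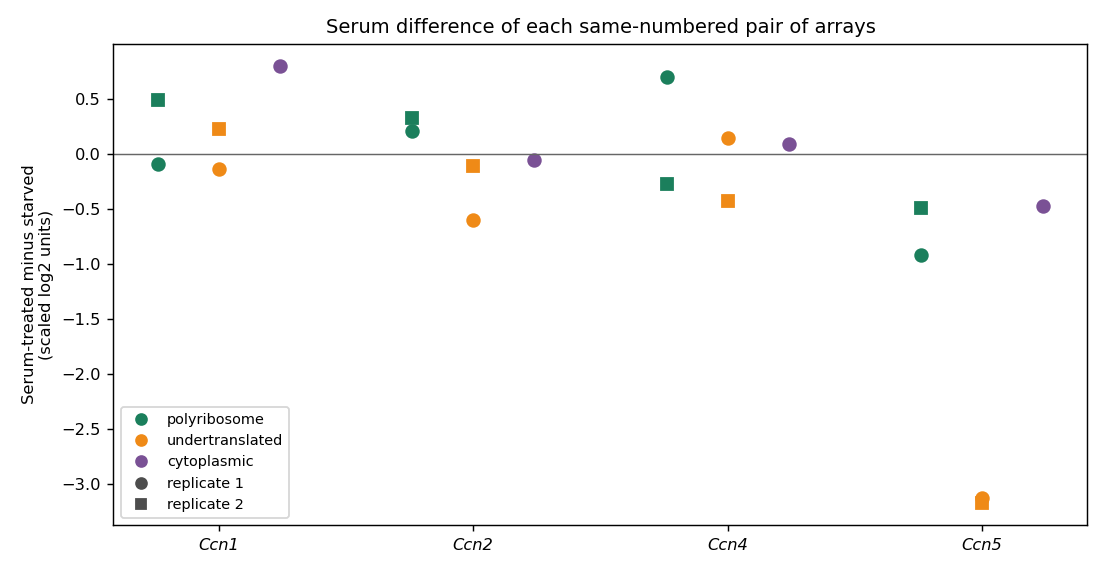
Serum-treated minus starved difference (scaled log2 units) of each same-numbered pair of arrays, for 4 genes and 3 RNA pools. All 5 Ccn5 pairs lie below 0, from -0.47 to -0.92 in polyribosome and cytoplasmic RNA, and its 2 undertranslated points rest on serum-treated signal below background and are no measured size.

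Of 74 tested genes around the CCN proteins, in 7 lists, none passed limma's serum test and 13 had an unadjusted p under 0.05. Over all 9316 probe sets 83 passed and 1091 had such a p, so these counts say nothing particular about the lists. The median differences were 0.25 for 13 YAP/TEAD target genes, -0.20 for 9 YAP, TEAD and Hippo pathway genes, 0.26 for 11 receptors of CCN proteins and thrombospondin 1, and 0.01 for 12 transforming growth factor beta pathway genes. They were 0.17 for 15 targets of serum response factor, 0.16 for 11 other matricellular genes and -0.35 for Ccn3, Thbs2 and Thbs3, the other family members tested, against -0.0092 for all probe sets.

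Markers of macrophages moved with the serum state. Of 9 tested (11 on the array) 5 rose in this fit and none fell, led by Ctss, which encodes cathepsin S, at 1.73 ± 0.17 (limma adjusted p = 0.00532), and Aif1 was above background on no array. Their summed scaled intensity was 1075 to 1409 in serum-treated and 420 to 433 in starved polyribosome RNA, and 733 in serum-treated and 335 in starved cytoplasmic RNA. The 12 fibroblast markers summed to 12178 to 12235 in serum-treated and 9012 to 10847 in starved polyribosome RNA, and to 11323 in serum-treated and 12750 in starved cytoplasmic RNA. Their part in the Ccn5 difference was not tested.

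In undertranslated RNA 1 CCN mRNA of the 4, Ccn5, fell with serum. Since both serum-treated arrays were below background, the fold is a bound: Ccn5 was at least 1.88-fold lower in serum-treated than in starved undertranslated RNA (2 arrays each). The bound has no test, and the limma adjusted p of 0.0338 is that of the fitted difference, which uses the signal below background. Of the 9316 probe sets 1.07% passed, 0.29% higher and 0.784% lower. The scaled levels were 2.77 and 2.31 in serum-treated and 5.90 and 5.48 in starved RNA, so the groups did not overlap, the serum-treated levels resting on signal below background. The call was lost when the 4 undertranslated arrays were fitted alone (adjusted p = 0.479), and when any array other than the 2 serum-treated undertranslated ones was left out, as given below.

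The other members did not pass in undertranslated RNA. Ccn2 stood at -0.35 ± 0.17 (limma adjusted p = 0.301), with levels of 10.02 and 10.38 in serum-treated and 10.61 and 10.48 in starved RNA. Ccn4 stood at -0.15 ± 0.35 (adjusted p = 0.838) and Ccn1, close to background there, at 0.05 ± 0.34 (adjusted p = 0.951) in the same limma fit. None of the 74 tested genes of the lists passed with limma, and 14 had an unadjusted p under 0.05, as had 1762 of the 9316 probe sets. The ratio of 3′ to 5′ Actb control signal, a sign of RNA integrity, was 23.6 and 33.9 on the serum-treated and 137 and 61.4 on the starved undertranslated arrays. Epithelial markers (8 genes, Epcam above background on no array) summed to 292 to 319 in serum-treated and 120 to 127 in starved undertranslated RNA, and macrophage markers to 570 to 867 in serum-treated and 321 to 431 in starved RNA. Endothelial markers (9 genes, Cdh5 and Tie1 above background on no array) summed to 265 to 332 in serum-treated and 150 to 219 in starved RNA, and 1 of 6 tested rose (Flt1, a receptor of vascular endothelial growth factor, at least 5.78-fold, limma adjusted p = 0.0338). None of the tested macrophage or epithelial markers passed there. On each undertranslated array only 1 to 3 of the 8 epithelial and 2 to 5 of the 9 endothelial markers were above background. For macrophages it was 4 to 5 of 11, so all these sums include signal not above background. The part of RNA integrity and of other cells in the Ccn5 result was not tested.

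A further comparison asked where each mRNA lay between ribosome-loaded and undertranslated RNA. Ccn1 and Ccn5 passed toward polyribosomes in both serum states, Ccn2 in serum-treated cells and Ccn4 in neither; whether the genes differ from each other was not tested. In serum-treated cells 3 of 4 were higher in polyribosome RNA, where 23.5% of the 9316 probe sets were (43.9% passed in either direction). Ccn1 was higher by 3.23 ± 0.34 log2 units (SE, 2 arrays each, limma adjusted p = 0.000485), or 9.41-fold, with levels of 7.88 and 8.28 in polyribosome and 4.92 and 4.77 in undertranslated RNA. Its undertranslated signal there was only 1.06 and 1.03 times background, so the size rests on signal at the edge of detection. Ccn5 was at least 2.92-fold higher (limma adjusted p = 0.00049 for the fitted difference, not the bound), since it was below background in undertranslated RNA. Ccn2 was higher by 0.94 ± 0.17 (limma adjusted p = 0.00367), with levels of 11.15 and 11.12 in polyribosome and 10.02 and 10.38 in undertranslated RNA. Ccn4 stood at 0.45 ± 0.35 (adjusted p = 0.316), and its arrays overlapped.

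In starved cells 2 of 4 were higher in polyribosome RNA, against 14.6% of all probe sets (28.3% passed in either direction). Ccn1 was higher by 3.08 ± 0.34 (limma adjusted p = 0.000932), an 8.47-fold difference that only 2.9% of probe sets matched or exceeded. Its undertranslated signal there was 1.66 and 1.26 times background, so this size and rank rest on signal close to background. Ccn5 was higher by 1.34 ± 0.40 (limma adjusted p = 0.0383), with levels of 7.26 and 6.81 in polyribosome and 5.90 and 5.48 in undertranslated RNA. The Ccn5 call was lost without any 1 of 6 of the 8 arrays. Ccn2 stood at 0.32 ± 0.17 (adjusted p = 0.199) and Ccn4 at 0.09 ± 0.35 (adjusted p = 0.87) in the same limma fit.

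In the deposited values, with the undertranslated arrays dim, the same split was larger. The cause of the dimness was not tested. Polyribosome intensity over undertranslated intensity was 119 for Ccn1 in serum-treated and 96.4 in starved cells, where the median probe set had 10.2 in serum-treated and 7.92 in starved cells. Both Ccn1 ratios rest on undertranslated signal close to background. Ccn4 had 35.5 in serum-treated and 15.3 in starved cells, and Ccn2 had 24.3 in serum-treated and 8.17 in starved cells. Ccn5 had 31.4 in starved cells, and no ratio is given for serum-treated cells, where its undertranslated signal was below background. With values as deposited all 4 genes passed toward polyribosomes in both states. So did 7879 of the 9316 probe sets in serum-treated and 7881 in starved cells, so this says little about the CCN genes. Whether Ccn4, and Ccn2 in starved cells, passed depended on the scaling. The Ccn2 call in serum-treated cells was lost without the variance trend (limma adjusted p = 0.0502). All 4 genes lay above 0 in both states under each of the 3 scalings tried. Ccn1 and Ccn5 passed in both states under each of them. With median centring 3881 probe sets passed toward polyribosomes in serum-treated and 3240 in starved cells. The Actb 3′ to 5′ ratio was 11.5 to 21.1 on the polyribosome and 23.6 to 137 on the undertranslated arrays. That of Gapdh control signal did not move with it, at 6.11 to 20.9 on the polyribosome and 3.70 to 6.81 on the undertranslated arrays. The part of RNA integrity in these differences was not tested.

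**Figure D4:**
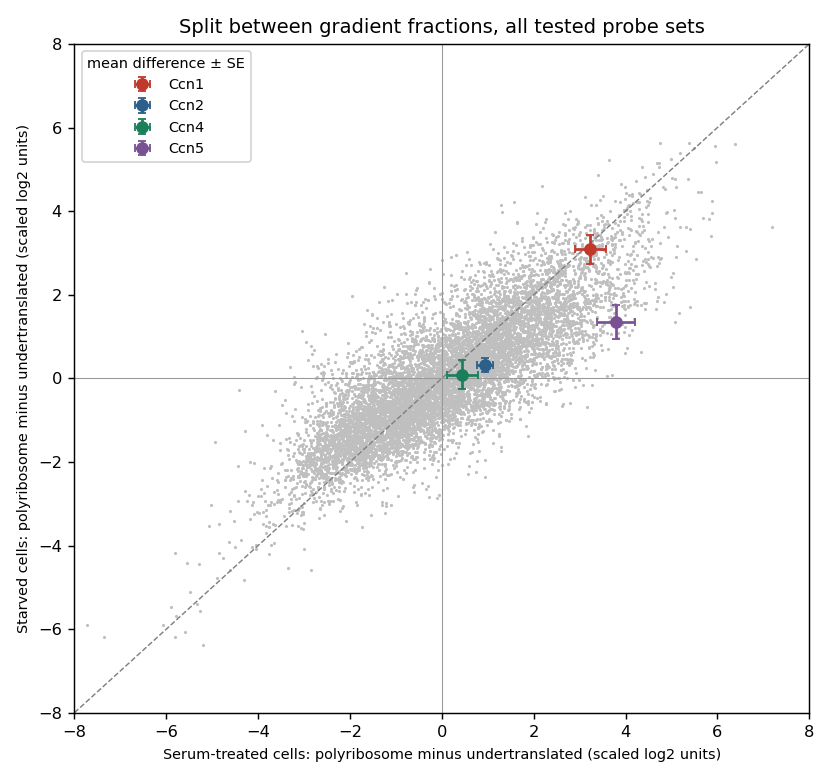
Polyribosome minus undertranslated difference (scaled log2 units) in serum-treated cells (x axis) and starved cells (y axis) for 9316 probe sets (grey), with the 4 CCN genes as coloured points ± SE and a dashed line of equal values. Ccn1 lies near the line at 3.23 and 3.08, and Ccn5 lies off it at 3.79 and 1.34, the first value resting on signal below background. Both Ccn1 values rest on undertranslated signal close to background.

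Whether serum shifted the split itself was asked with the interaction term. No CCN gene and no other probe set of the 9316 passed with limma (0% called, 720 at an unadjusted p under 0.05, among them Ccn2 and Ccn5). Ccn5 stood at 2.45 ± 0.57 log2 units toward polyribosomes after serum (limma adjusted p = 0.457), a value that rests on 2 arrays below background and is no bound. It passed without serum-treated undertranslated replicate 2, at 2.22 (limma adjusted p = 0.0299), where 719 probe sets passed toward polyribosomes and 183 away from them. Ccn2 stood at 0.62 ± 0.25 (limma adjusted p = 0.615). Its mean level was 11.14 in serum-treated and 10.87 in starved polyribosome RNA, and 10.20 and 10.55 in undertranslated RNA in the same order. Ccn4 stood at 0.36 ± 0.49 (adjusted p = 0.847) and Ccn1, close to background in undertranslated RNA, at 0.15 ± 0.49 (adjusted p = 0.942) in the same limma fit.

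Genes of the same pathways gave calls on both sides in the same fit, to be read against 23.5% higher and 20.5% lower of all probe sets in serum-treated cells and 14.6% higher and 13.7% lower in starved cells. In serum-treated cells 9 of 13 tested YAP/TEAD target genes were higher in polyribosome RNA and 1 was lower. In starved cells 2 were higher and none lower. Igfbp3, which encodes a binding protein of insulin-like growth factors, was higher by 3.44 ± 0.48 in serum-treated and by 1.70 ± 0.48 in starved cells (limma adjusted p = 0.00115 and 0.031). Next in size in serum-treated cells were Dock5 at 1.95 ± 0.44, Gadd45a at 1.74 ± 0.44 and, in the other direction, the phosphatase gene Ptpn14 at -1.71 ± 0.61. In starved cells the other call was Fjx1, at least 1.45-fold higher. Yap1 was higher by 2.37 ± 0.39 in serum-treated and by 2.92 ± 0.39 in starved cells, and the TEAD factor Tead4 was lower by 2.53 ± 0.38 and by 2.31 ± 0.38 in the same order (limma adjusted p at most 0.00383). Amot, which encodes the YAP-binding angiomotin, was higher by 2.75 ± 0.51 and by 2.30 ± 0.51, and Wwtr1, which encodes TAZ, by 2.05 ± 0.26 and by 0.83 ± 0.26, with serum-treated cells first. In that list of 9 genes, 5 were higher and 2 lower in serum-treated cells, and 3 were higher and 1 lower in starved cells.

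Of 11 receptors, 3 were higher in polyribosome RNA of serum-treated and 2 in that of starved cells, and none was lower. The integrin subunit Itgb5 was at least 10.3-fold higher in serum-treated and at least 15.8-fold higher in starved cells (limma adjusted p = 0.000182 and 0.000197). Itga6, a subunit of laminin receptors, was at least 1.09-fold higher in serum-treated cells. The lipoprotein receptor Lrp1, which takes up CCN2 and thrombospondin, was higher by 1.39 ± 0.40 in serum-treated and by 1.76 ± 0.40 in starved cells. Thbs2, a relative of Thbs1, was higher by 2.31 ± 0.43 in serum-treated and by 2.31 ± 0.43 in starved cells. Ccn3 was higher by 1.43 ± 0.38 in serum-treated cells (limma adjusted p = 0.0166) and stood at 0.89 ± 0.38 in starved cells (adjusted p = 0.109).

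Other matricellular genes gave 5 higher and none lower of 11 in serum-treated and 3 higher and 1 lower in starved cells. They were led by the fibulin Fbln2 at 3.29 ± 0.40 in serum-treated and 3.01 ± 0.40 in starved cells, with the collagen-binding Sparc at 2.79 ± 0.45 and 1.89 ± 0.45 and Smoc2 at 2.25 ± 0.49 and 2.24 ± 0.49. Postn, the periostin gene, was called in serum-treated cells at 1.31 ± 0.36, and the proteoglycan gene Spock1 in starved cells at -1.77 ± 0.54. Of 12 transforming growth factor beta pathway genes 5 were higher and 2 lower in serum-treated cells, and 2 were higher and none lower in starved cells. Smad4, the common signal transducer, was higher by 2.81 ± 0.74 in serum-treated cells, where it was above background on 1 of 2 undertranslated arrays. In serum-treated cells the latency protein genes Ltbp1 and Ltbp3 moved apart, Ltbp1 at least 1.26-fold higher and Ltbp3 lower by 1.81 ± 0.42, and in starved cells the SMAD corepressor Skil was at least 1.41-fold higher. The ligand gene Tgfb3 was higher by 1.66 ± 0.32 in serum-treated and by 1.41 ± 0.32 in starved cells. Of 15 targets of serum response factor 5 were higher and 2 lower in serum-treated cells, and 3 were higher and 2 lower in starved cells. The calponin gene Cnn2 was higher by 4.28 ± 0.77 in serum-treated and by 3.83 ± 0.77 in starved cells, and Pdlim7 was lower by 2.18 ± 0.30 and by 1.99 ± 0.30. The list medians were 1.47 for YAP/TEAD targets, 1.22 for matricellular genes, 0.45 for receptors (0.30 with bounds in place of fitted values below background) and 0.04 for serum response factor targets in serum-treated cells, against 0.10 for all probe sets. In starved cells the same medians were 0.44, 0.37, 0.79 and 0.25, against 0.0014 for all probe sets.

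The last comparison set polyribosome against cytoplasmic RNA, over 4 and 2 arrays with the serum state as a factor. These pools also differ by cycloheximide, and the pool and the drug cannot be told apart. Scaled to the same distribution, Ccn1, Ccn4 and Ccn5 were lower in polyribosome RNA, where 11.9% of probe sets were lower (26.4% passed in either direction). Ccn1 was lower by 1.01 ± 0.22 (limma adjusted p = 0.00918), Ccn4 by 1.05 ± 0.23 (adjusted p = 0.0106) and Ccn5 by 0.75 ± 0.20 (adjusted p = 0.0225). Ccn2 stood at -0.39 ± 0.17 (limma adjusted p = 0.126). The 3′ to 5′ ratio of Gapdh control signal was 6.11 to 20.9 on the polyribosome and 28.4 to 47.0 on the cytoplasmic arrays. That of Actb overlapped, at 11.5 to 21.1 on the polyribosome and 11.9 to 16.6 on the cytoplasmic arrays. The part of RNA integrity in these differences was not tested. With values as deposited all 4 differences turned to the opposite sign, from 0.60 to 1.09, where the median probe set stood at 1.30. With median centring none passed. Without the serum-treated cytoplasmic array none passed, and without the starved cytoplasmic array only Ccn1 did.

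The neighbouring genes of the CCN proteins gave calls on both sides in this comparison, under the same scaling, where 1350 of the 9316 probe sets were higher and 1113 lower. Of 15 targets of serum response factor 7 were lower and none higher, led by Tgfb1i1 at -2.29 ± 0.18 and the tropomyosin gene Tpm1 at -1.61 ± 0.24. Of 13 YAP/TEAD targets 4 were lower and 2 higher, led by Amotl2 at -1.47 ± 0.19. Of 11 receptors 3 were lower and 2 higher, led by the syndecan gene Sdc4 at -2.21 ± 0.22. Of 11 matricellular genes 3 were lower, led by the tenascin gene Tnc at -1.64 ± 0.25, and none was higher. Of 9 YAP, TEAD and Hippo genes 4 were higher and 1 lower, led by Wwtr1 at 1.39 ± 0.22. Of 12 transforming growth factor beta genes 4 were lower and 1, Smad4 at 1.87 ± 0.29, was higher. Of the 3 relatives Ccn3 was higher by 1.33 ± 0.23 (limma adjusted p = 0.00362).

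Over the 6 groups the scaled level of Ccn1 ran from serum-treated cytoplasmic (9.40) through starved cytoplasmic (8.60), serum-treated polyribosome (mean 8.08) and starved polyribosome (7.88) to serum-treated (4.85) and starved undertranslated RNA (4.80). The states overlapped within both gradient pools. Ccn2 was highest in cytoplasmic RNA (11.36 in serum-treated and 11.41 in starved cells), then in polyribosome RNA (11.14 in serum-treated and 10.87 in starved cells). Its lowest levels were in undertranslated RNA (10.20 in serum-treated and 10.55 in starved cells). The 4 gradient groups of Ccn4 lay between 8.32 and 8.76 and overlapped, below 9.75 in serum-treated and 9.66 in starved cytoplasmic RNA. Ccn5 stood at 7.20 in serum-treated and 7.67 in starved cytoplasmic RNA, at 6.33 in serum-treated and 7.04 in starved polyribosome RNA and at 2.54 in serum-treated and 5.69 in starved undertranslated RNA. Its serum-treated cytoplasmic value lay within the range of the starved polyribosome arrays. The order of cytoplasmic and polyribosome RNA depended on the scaling. As deposited, the difference between those pools had the opposite sign for each of these genes.

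The genes whose scaled levels followed each member most closely over the 10 arrays were taken from 6783 genes. The arrays share their pools, whose part in these correlations was not tested. For Ccn1 they were Vps37b (Pearson r = 0.995), Creld2 (0.992) and 2510039O18Rik (0.992). In that order they were above background on only 6, 7 and 6 of the 10 arrays, and Ccn1 was itself close to background in undertranslated RNA. For Ccn2 they were Ddx5 (0.972), Lima1 (0.966) and Sparc (0.963), and for Ccn4 Eif2s3x (0.936), Amotl2 (0.926) and Abl1 (0.92). For Ccn5 they were Dhx30 (0.982), Anapc4 (0.979) and Gle1 (0.979), each above background on 8 of the 10 arrays. Of the genes named for Ccn2 and Ccn4, Ddx5 was above background on 9 arrays and the others on all 10. Among the members themselves Ccn1 and Ccn2 had the highest r (0.906) and Ccn4 and Ccn5 the lowest (0.586), over the same 10 arrays.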

How the data were processed

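The authors deposited linear intensity values, 1 for each probe set on each biotin-labelled Affymetrix array, per the labels' protocols. How the authors summarised probes and scaled arrays is not given in the sources used here. Of 12422 ordinary probe sets, 10833 have 1 gene symbol in the platform annotation, 396 several and 1193 none there. The Entrez genes of the 4 CCN probe sets matched the reference gene table.

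The log2 scale was log2(intensity + 1.5), with the 10th percentile of all intensities as pseudocount, which taken alone shrinks changes of dim genes. The scaling of arrays could enlarge them. The Ccn5 change of the split with serum stood at 2.45 as reported, 1.39 as deposited and 1.27 with median centring. Array medians differed by 2.95 log2 units, so all 10 arrays were quantile normalized, and probe sets of the lowest mean level (to the 25th percentile) were dropped (9316 kept). The 6 polyribosome and cytoplasmic arrays (terms for serum state and pool) and the 8 gradient arrays (4 groups) were fitted with limma 3.58.1 in R 4.3.3, by eBayes with a trend, two-sided tests and Benjamini-Hochberg adjustment at 0.05 over all probe sets tested. The fits were tested on simulated data. A gene on 1 side not above background on any array has a bound: the bright side's mean minus a dim-side mean that takes, on each array, the larger of its own level and the lowest level found above background. Bounds hold within this scaling only. An adjusted p printed with a bound is that of the fitted difference, and the bound itself has no test.

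The members, lists and tests were chosen with earlier results of these data known. The rule named the members, the called members of each list in order of size (at most 4 for each comparison, of which the text prints a part), and the 3 genes most correlated with each member. Where a listed gene had more than 1 probe set, the brightest on average was used. Replicate numbers come from the labels, where number 2 marks 4-thiouridine labelling in each gradient group. After subtraction of group means, arrays of the same number correlated at r = 0.275 for the polyribosome groups, and at 0.0171 to 0.0535 for the remaining pairs of gradient groups. Alternatives are given in the closing section.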

Additional observations from a re-analysis of the deposited data

How the results depend on the processing

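Alternatives changed the scaling, pseudocount (1 or 10), filter, variance trend, replicate block and arrays used. Of the single-gene values 345 kept their direction and, where there was a test, their side of the threshold. With the direction kept, 23 lost and 6 gained a call, and 18 values reversed, whether called or not. The cytoplasmic pair, which has no test, is counted among them. With the replicate block the CCN calls were 0 for serum in polyribosome and cytoplasmic RNA, 1 in undertranslated RNA, 3 and 2 for polyribosome against undertranslated RNA in serum-treated and starved cells, 0 for the change with serum and 3 for polyribosome against cytoplasmic RNA, so it changed no CCN call. Polyribosome against cytoplasmic RNA gave 0 calls with median centring, 2 as deposited and 0 to 3 with an array left out, with reversed differences as deposited of 0.60 for Ccn1, 1.09 for Ccn2, 0.61 for Ccn4 and 0.65 for Ccn5. Serum in undertranslated RNA gave 0 calls with those arrays alone and 0 to 1 with an array left out, where the adjusted p for Ccn5 was 0.102 to 0.137 wherever the call was lost. Polyribosome against undertranslated RNA in starved cells gave 4 calls as deposited, where 7881 of the 9316 probe sets were higher. It gave 1 to 2 with an array left out, and the change with serum gave 0 to 1.

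Other reversed values were uncalled. For serum in undertranslated RNA, Ccn1 stood at -0.23 as deposited, -0.0027 with median centring and -0.21 to 0.30 with an array left out, and Ccn4 at -0.55 to 0.25. In the cytoplasmic pair Ccn2 stood at 0.067 as deposited and 0.060 with median centring. With an array left out Ccn4 stood at -0.054 to 0.37 for serum in polyribosome and cytoplasmic RNA and at -0.023 to 0.20 between the gradient pools of starved cells. The change with serum stood at -0.10 to 0.40 for Ccn1 and -0.042 to 0.76 for Ccn4.

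Over all probe sets the serum calls in polyribosome and cytoplasmic RNA were 62 higher and 21 lower, against 18 and 6 with no filter, 15 and 4 with no variance trend, 98 and 51 with the replicate block and 5 and 0 for polyribosome arrays alone. In undertranslated RNA they were 27 and 73, against 0 and 22 as deposited, 8 and 44 with the block, 0 and 0 for those arrays alone and 813 and 1489 without serum-treated undertranslated replicate 2. As deposited, 63.0% of the first were higher, against 74.7%. In undertranslated RNA median centring gave 10.3% higher, against 27%. As deposited and with median centring, 98.8% and 66.0% of calls were higher in polyribosome than cytoplasmic RNA (54.8% as reported). Against undertranslated RNA these shares were 99.6% and 70.7% in serum-treated cells (53.4% as reported) and 99.6% and 70.4% in starved cells (51.6% as reported), where the medians of all probe sets were 3.16 and 0.64 in serum-treated and 2.80 and 0.40 in starved cells. The cause of these changes was not tested. Signal limits Ccn1 and Ccn5 in undertranslated RNA, and the number of arrays limits all comparisons.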
